A study of Homo sapiens with 9 samples.

Results

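IL7R, IL2RG, IL4R, IL21R and IL10RA, which encode cytokine receptor chains, the kinase genes JAK1 and JAK3 and the transcription factor genes STAT5A, STAT5B and STAT6 were measured by RNA-seq in OCI-Ly1 cells, a human diffuse large B-cell lymphoma line. They are 10 of the 26816 genes in the deposited count table, and all 10 were among the 15725 genes with enough reads to test. The 10 genes were taken by symbol and were selected on earlier results from these same counts, in which IL7R and STAT5A were higher after LSD1 depletion, so every value of theirs is given as a description and supports nothing by itself. LSD1, encoded by KDM1A, is a histone demethylase.

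The cells carried a pLKO1 short hairpin RNA (shRNA) and had been selected with puromycin. Of the 9 libraries, 3 came from cells with the LSD1 shRNA sh68, 3 from cells with the LSD1 shRNA sh72 and 3 from cells with shSCR, the non-targeting control. All were grown in IMDM with fetal bovine serum, and polyA RNA was sequenced from what the submitters call biological triplicates. The model is 1 cell line with reduced, not deleted, KDM1A, and no label gives the time between transduction and harvest. The table names its columns sh68 and sh72, while the sample labels number the LSD1 shRNAs 1 and 2 without saying which is which.

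The libraries held between 29506767 and 35270849 counted reads, and the lowest correlation of log2 CPM, the read count scaled to a common library size, between replicates of a group was 0.998. KDM1A stood at 24.4 ± 1.26 CPM in sh68, 20.9 ± 1.82 CPM in sh72 and 121 ± 1.44 CPM in shSCR cells (SD, n = 3 each), a log2 fold change against shSCR of -2.31 ± 0.0542 with sh68 and -2.54 ± 0.0556 with sh72 (± SE). The median log2 fold change of all tested genes was -0.01 in either comparison. Of 8 B-cell markers all were in the table, and their summed level ranged over 5578 to 5730 CPM with sh68, 3776 to 3981 CPM with sh72 and 5466 to 5660 CPM in shSCR cells. The T-cell markers summed to at most 2.07, 2.12 and 2.77 CPM in those groups.

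Interleukin-7, interleukin-4 and interleukin-21 each signal through a private chain and a chain they have in common. IL7R is the alpha chain for interleukin-7 and, with CRLF2, for TSLP; IL2RG is the common gamma chain that IL7R, IL4R and IL21R pair with. JAK1 sits on the private chains and JAK3 on the common gamma chain, and once a cytokine joins the chains these kinases phosphorylate STAT proteins, which enter the nucleus and bind DNA as dimers. Interleukin-7 acts mainly through STAT5A and STAT5B, interleukin-4 through STAT6, and interleukin-21 and interleukin-10 mainly through STAT3. In the B lineage IL7R belongs to progenitor stages, where in the mouse it is needed for B-cell development, and mature and germinal-centre B cells normally carry little of it.

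The start sites of the genes the results turn on differed widely in sequence. Shown are IL7R, the member with the largest change with sh68, and the paralogs STAT5A, which was called, and STAT5B, which was not. Their windows run from 250 bases before to 50 bases after a RefSeq start (build GRCh38.p14). Each is written 5′ to 3′ in the gene's own direction, in lower case with every CG dinucleotide in capitals. The windows lie at chr5:35856641-35856940 on the plus strand, chr17:42287189-42287488 on the plus strand and chr17:42276342-42276641 on the minus strand. The STAT5A window is at the most upstream of 3 STAT5A starts. The STAT5B window lies inside the annotated span of that gene, whose upstream end is at 42288370.
IL7R: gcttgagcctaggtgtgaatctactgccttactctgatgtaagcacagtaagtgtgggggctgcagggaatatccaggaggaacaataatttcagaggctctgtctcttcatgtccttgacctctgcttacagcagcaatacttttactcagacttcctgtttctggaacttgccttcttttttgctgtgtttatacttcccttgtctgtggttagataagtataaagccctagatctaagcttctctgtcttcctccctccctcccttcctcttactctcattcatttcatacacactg
STAT5A: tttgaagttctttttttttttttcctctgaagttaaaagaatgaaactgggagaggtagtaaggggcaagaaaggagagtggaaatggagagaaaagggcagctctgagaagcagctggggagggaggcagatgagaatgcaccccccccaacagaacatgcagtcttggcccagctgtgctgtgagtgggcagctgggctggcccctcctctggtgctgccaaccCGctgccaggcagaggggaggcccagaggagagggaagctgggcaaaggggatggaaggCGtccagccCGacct
STAT5B: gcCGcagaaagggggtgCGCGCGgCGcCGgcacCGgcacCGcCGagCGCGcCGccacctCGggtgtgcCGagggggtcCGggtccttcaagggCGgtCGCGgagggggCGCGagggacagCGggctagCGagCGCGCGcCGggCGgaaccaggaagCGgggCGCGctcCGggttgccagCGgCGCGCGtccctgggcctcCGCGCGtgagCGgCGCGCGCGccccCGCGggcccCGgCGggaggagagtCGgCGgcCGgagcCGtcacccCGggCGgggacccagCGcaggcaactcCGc

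The IL7R window held 0 CG dinucleotides and was 44.3% G and C, the STAT5A window held 3 at 56.3%, and the STAT5B window held 55 at 82.0%. Among 35116 such windows the quartiles were 4, 14 and 28 CG dinucleotides, 3.96% had 0, 0.373% had 55 or more, and the median content of G and C was 58.7%. The CG count was chosen after the expression values had been seen. Across the 14 windows that match the 10 genes, IL21R had 2, IL2RG and IL10RA 4 each, STAT6 12, JAK3 14 and IL4R 42, and the 3 windows of JAK1 had 9, 15 and 43. The other STAT5A windows had 5 and 37. The palindromic letters TTCNNNGAA, the spacing most STAT proteins bind, were in 0 of the 14 windows, against 7.66% of all windows. The same half-sites TTC and GAA with 4 bases between them, the wider spacing that STAT6 favours, were in 1 of the 14, the STAT5A window above, as TTCCTCTGAA starting 229 bases before the start site, and were in 6.44% of all windows. A match is a description of the letters only.

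In the plot of all members, IL7R and STAT5A were high with sh68, intermediate with sh72 and low in shSCR cells. In contrast, 4 of the other members moved one way with sh68 and the other way with sh72. The share of all tested genes that moved in opposite directions was not counted, so whether 4 is many cannot be said. A gene is called here where its adjusted p from edgeR's quasi-likelihood test, corrected over all tested genes, is under 0.05. With sh68, 7 members were called higher and 2 lower, where 27.4% of all tested genes were called higher and 28.1% lower. With sh72, 5 were called higher and 4 lower, where 24.7% of all tested genes were called higher and 26.3% lower. The median log2 fold change of the 10 was 0.58 with sh68 and 0.22 with sh72. Both comparisons use the same 3 shSCR libraries, so their values are set side by side without a measure of likeness. In bulk RNA, more expressing cells and more RNA per cell cannot be told apart.

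**Figure D1:**
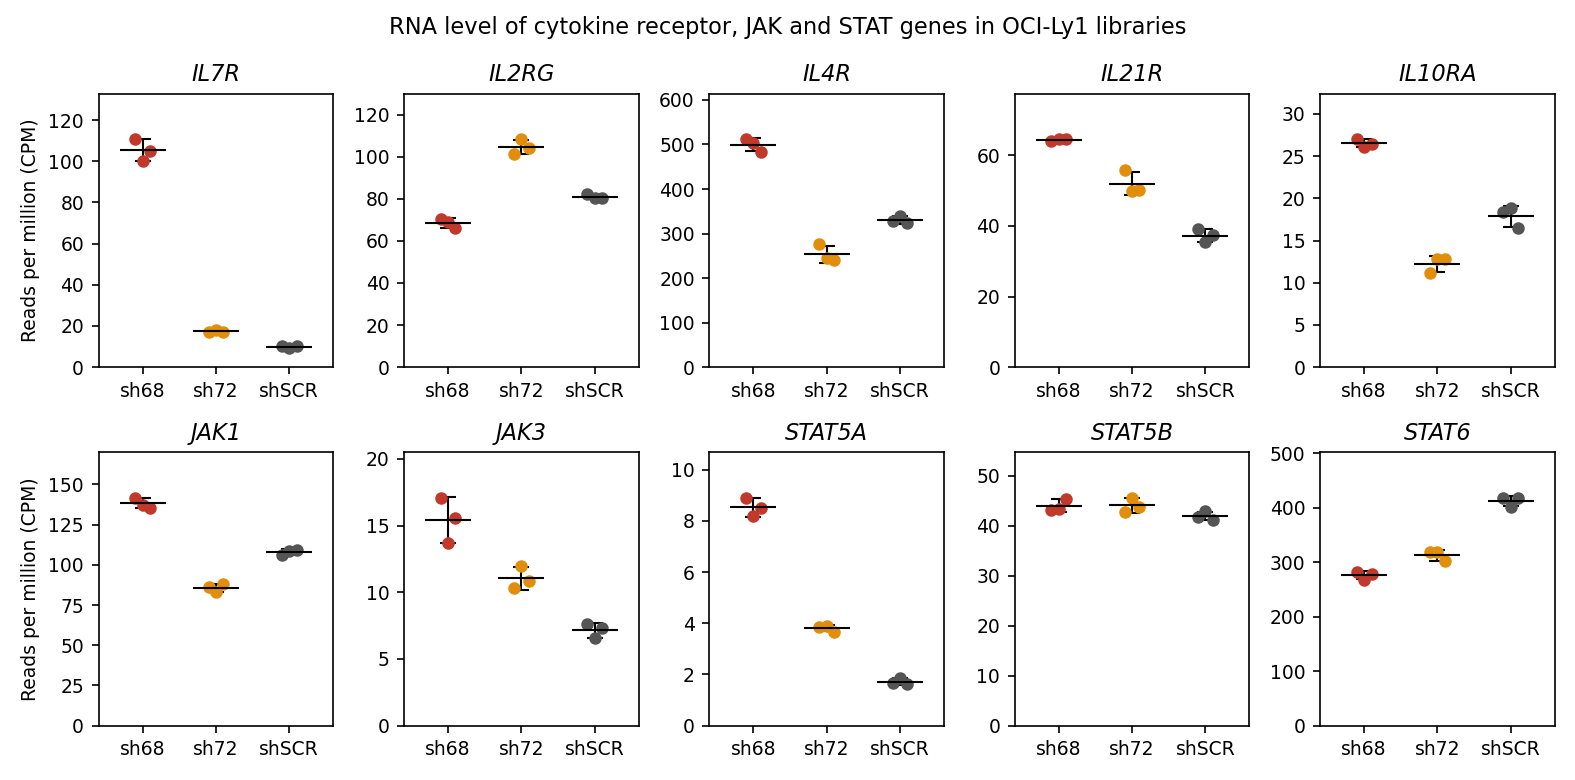
Level of each of the 10 genes in CPM on linear axes that start at 0, by shRNA, with a point for each library and a bar with error at the mean ± SD of 3 libraries. IL7R averaged 105 CPM with sh68, 17.4 CPM with sh72 and 9.92 CPM in shSCR cells, and STAT5B stayed between 41.1 and 45.6 CPM in all 9 libraries.

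IL7R, on chromosome 5 from 35856891 to 35879603 (RefSeq, GRCh38.p14), had 111, 100.2 and 105 CPM in sh68 cells, 17.3, 17.8 and 17.1 CPM in sh72 cells and 10.2, 9.42 and 10.1 CPM in shSCR cells. These came from 3606, 3519 and 3705 reads with sh68, 593, 564 and 521 reads with sh72 and 331, 272 and 317 reads with shSCR. The 3 groups did not overlap, and the sh72 libraries lay much nearer to the control than to sh68. The log2 fold change was 3.41 ± 0.0578 with sh68 and 0.81 ± 0.0665 with sh72, which is 10.6-fold and 1.75-fold. Only 37 of the 15725 tested genes had a larger log2 fold change with sh68, and 5 of the 11570 whose average log2 CPM was at least 1. With sh72, 930 tested genes had a larger one, and 94.1% had a smaller one.

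IL2RG, the common gamma chain with which IL7R pairs, is on chromosome X from 71107404 to 71111577 and had 70.5, 69.1 and 65.9 CPM in sh68 cells, 101, 108 and 104 CPM in sh72 cells and 82.2, 80.3 and 80.6 CPM in shSCR cells. All sh68 libraries were below, and all sh72 libraries above, the shSCR libraries. The log2 fold change was -0.24 ± 0.0425 with sh68 and 0.37 ± 0.0417 with sh72. Of the merged IL2RG exon length 50.8% lies under another GENCODE gene on the same strand, AL590764.2, which has no row in the table. Whether the annotation used for counting held AL590764.2 is not given, so whether reads shared by the pair are missing from these counts is not known. Per kb of exon, the ratio of IL7R to IL2RG reads was 0.701 ± 0.0353 with sh68, 0.0757 ± 0.00168 with sh72 and 0.0557 ± 0.00202 in shSCR cells (SD, n = 3 each).

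IL4R, the interleukin-4 receptor alpha chain, had 512, 503 and 484 CPM in sh68 cells, 276, 246 and 241 CPM in sh72 cells and 327, 340.0 and 323 CPM in shSCR cells. It was highest with sh68 and lowest with sh72, with no overlap between any of the 3 groups, and its log2 fold change was 0.60 ± 0.0438 with sh68 and -0.38 ± 0.0442 with sh72. IL21R, the private chain for interleukin-21, is its neighbour on chromosome 16, with 37.4 kb between the genes, IL4R from 27313756 to 27364778 and IL21R from 27402174 to 27452042. It had 64.1, 64.6 and 64.6 CPM in sh68 cells, 55.7, 50.04 and 50.1 CPM in sh72 cells and 39.1, 35.4 and 37.3 CPM in shSCR cells. Both LSD1 shRNAs thus stood above the control, by a log2 fold change of 0.79 ± 0.0517 with sh68 and 0.48 ± 0.0525 with sh72. The neighbours thus moved one way with sh68 and opposite ways with sh72. An antisense gene, IL21R-AS1, covers 23.3% of the IL21R exon length at 0.771 CPM with sh68 and 0.485 CPM in shSCR cells, and since strand use in counting is not given, reads of the pair cannot be told apart there.

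IL10RA, the ligand-binding chain for interleukin-10, which does not use the common gamma chain and signals through JAK1 and TYK2, is on chromosome 11 from 117986394 to 118003037. It had 27.0, 26.1 and 26.4 CPM in sh68 cells, 11.2, 12.8 and 12.8 CPM in sh72 cells and 18.3, 18.8 and 16.5 CPM in shSCR cells. As with IL4R the sh68 libraries were the highest and the sh72 libraries the lowest, and the log2 fold change was 0.57 ± 0.066 with sh68 and -0.54 ± 0.0724 with sh72. Transcripts of the ligands were scarce in these cells. Of 9 genes for cytokines that bind these receptors, 5 had a row in the table, and only IL7 and IL10 had enough reads to test. Cytokine in the medium was not measured. IL7 gave 16, 24 and 26 reads with sh68, 19, 29 and 17 with sh72 and 20, 9 and 20 with shSCR, and it did not pass the test with either shRNA. IL10 gave 20, 27 and 18 reads with sh68, 6, 8 and 8 with sh72 and 35, 27 and 26 with shSCR, and it fell by edgeR's test with sh72 (log2 fold change -2.04 ± 0.321, adjusted p = 1.07e-05).

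Of the kinases, JAK1, on chromosome 1 from 64833229 to 65067746, had 142, 137 and 135 CPM in sh68 cells, 86.2, 83.2 and 88.1 CPM in sh72 cells and 106, 109 and 109 CPM in shSCR cells. Its groups did not overlap, with sh68 above and sh72 below the control by log2 fold changes of 0.36 ± 0.0385 and -0.33 ± 0.0395. JAK3, the kinase of the common gamma chain, on chromosome 19 from 17824782 to 17847982, had 17.1, 13.7 and 15.6 CPM in sh68 cells, 10.3, 12.00 and 10.8 CPM in sh72 cells and 7.61, 6.54 and 7.33 CPM in shSCR cells. It was higher with either LSD1 shRNA, by a log2 fold change of 1.10 ± 0.0928 with sh68 and 0.62 ± 0.0971 with sh72. Per kb of exon, the ratio of JAK3 to JAK1 reads was 0.104 ± 0.0102 with sh68, 0.120 ± 0.0124 with sh72 and 0.0615 ± 0.00532 in shSCR cells. The ratio overlapped between sh68 and sh72 libraries and was lower in every shSCR library, although JAK1 itself moved in opposite directions.

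STAT5A and STAT5B, the paralogs that carry most of the interleukin-7 signal, lie next to each other on chromosome 17, and their annotated spans, 42287439 to 42311943 and 42199177 to 42288370, overlap by 931 bases. STAT5A had 8.90, 8.18 and 8.49 CPM in sh68 cells, 3.85, 3.89 and 3.67 CPM in sh72 cells and 1.67, 1.87 and 1.63 CPM in shSCR cells. The counts were 290, 287 and 299 reads with sh68, 132, 123 and 112 with sh72 and 54, 54 and 51 with shSCR. As with IL7R, the 3 groups were apart in the order sh68, sh72, shSCR. The log2 fold change was 2.31 ± 0.118 with sh68 and 1.15 ± 0.134 with sh72, which is 4.95-fold and 2.21-fold, and 175 and 519 tested genes had a larger one in those comparisons.

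STAT5B had 43.0, 43.3 and 45.4 CPM in sh68 cells, 42.7, 45.6 and 43.8 CPM in sh72 cells and 41.8, 42.9 and 41.1 CPM in shSCR cells. Its sh72 libraries overlapped both other groups, the sh68 libraries lay just above the shSCR libraries, and it was the only member not called in either comparison, with a log2 fold change of 0.07 ± 0.0481 with sh68 and 0.07 ± 0.0484 with sh72. STAT5A shares 8.61% of its 50-base transcript windows with STAT5B, and STAT5B 8.94% of its own with other genes, so reads of that length from those windows cannot be assigned to either gene alone. Per kb of exon, STAT5A made up 18.8%, 17.5% and 17.3% of STAT5A plus STAT5B with sh68, 9.17%, 8.72% and 8.60% with sh72 and 4.29%, 4.66% and 4.24% in shSCR cells. STAT5B therefore remained the major STAT5 transcript in all 9 libraries. STAT6, on chromosome 12 from 57095408 to 57111362, had 282, 268 and 278 CPM in sh68 cells, 318, 319 and 302 CPM in sh72 cells and 417, 402 and 419 CPM in shSCR cells. It was lower in every LSD1 shRNA library, with a log2 fold change of -0.58 ± 0.0368 with sh68 and -0.40 ± 0.0367 with sh72. The ratio of STAT6 to STAT5A plus STAT5B reads per kb was 4.56 ± 0.123 with sh68, 5.73 ± 0.219 with sh72 and 8.32 ± 0.371 in shSCR cells (SD, n = 3 each).

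**Figure D2:**
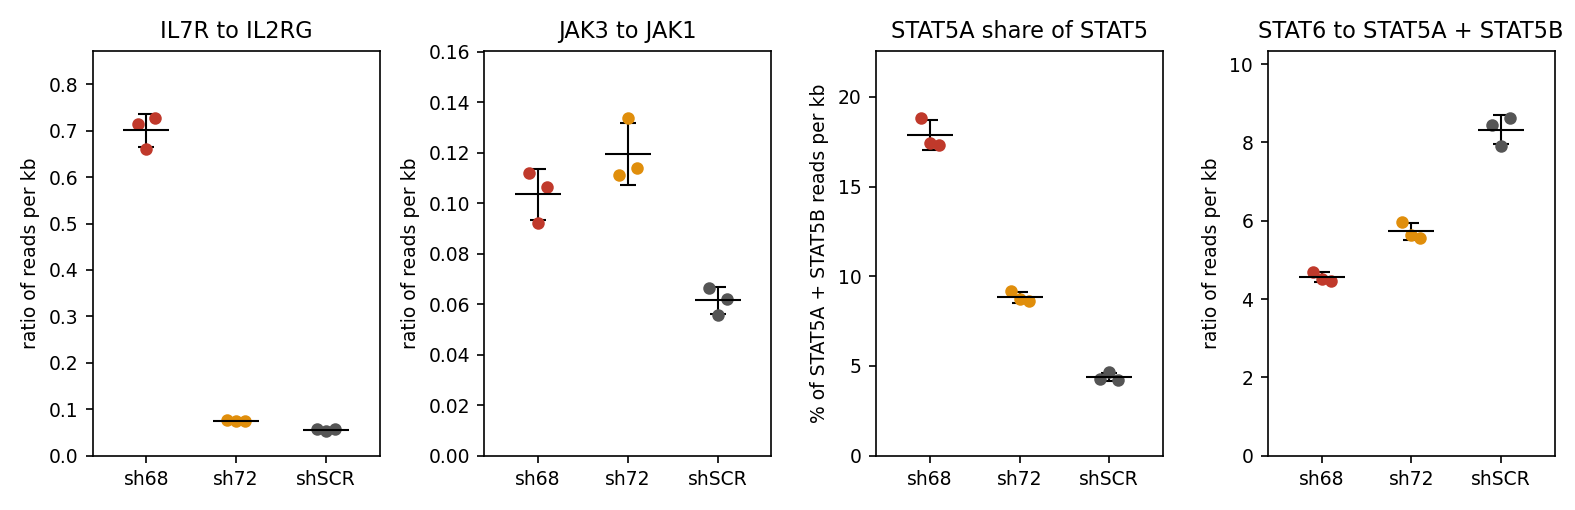
Ratios of reads per kb of exon between members in each library, by shRNA, on linear axes that start at 0, with points for libraries and the mean ± SD of 3. The STAT5A share averaged 17.9% with sh68, 8.83% with sh72 and 4.40% in shSCR cells, and the IL7R to IL2RG ratio averaged 0.701, 0.0757 and 0.0557 in those groups.

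Levels can be compared between genes only per length, and CPM per kb of merged GENCODE 29 exon (RPKM) was used for that. IL4R and STAT6 led in every group, with an RPKM of 84.7 ± 2.45 in sh68, 43.1 ± 3.23 in sh72 and 56.0 ± 1.52 in shSCR cells for IL4R and of 37.9 ± 0.986 in sh68, 42.9 ± 1.34 in sh72 and 56.6 ± 1.24 in shSCR cells for STAT6 (SD, n = 3 each). The RPKM of IL7R was 17.4 ± 0.865 in sh68, 2.87 ± 0.0619 in sh72 and 1.64 ± 0.0726 in shSCR cells, which ranked 5 among the 10 genes with sh68, 7 with sh72 and 8 in shSCR cells, and STAT5A was the lowest in each group, with an RPKM of 1.48 ± 0.0635 in sh68, 0.661 ± 0.0197 in sh72 and 0.299 ± 0.0226 in shSCR cells. In shSCR cells the order ran from STAT6 through IL4R, IL2RG, JAK1, IL21R, STAT5B, IL10RA, IL7R and JAK3 to STAT5A, and 30.2% of the 13134 tested genes with a length lay below IL7R, against 95.2% for STAT6 and 13.7% for STAT5A. The shSCR libraries of STAT6 and IL4R overlapped, as did those of IL21R and STAT5B. With sh72 the overlapping neighbours were IL4R with STAT6 and JAK3 with IL10RA, and with sh68 none of the neighbours overlapped. With the longest transcript as length, STAT5B at 8.21 RPKM stood above IL21R at 7.69 RPKM in shSCR cells, and STAT6 at 77.6 RPKM above IL4R at 68.9 RPKM with sh72.

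The LSD1 shRNAs were also set against each other, with the filter, scaling and spread still taken from all 9 libraries, shSCR included. In sh72 minus sh68, 2 members were called higher and 7 lower, where 27.2% of all tested genes were called higher and 29.0% lower, and the median log2 difference of the 10 was -0.58. The difference was -2.60 ± 0.0531 for IL7R, -1.16 ± 0.101 for STAT5A and -1.11 ± 0.0689 for IL10RA. IL4R differed by -0.98 ± 0.0442, JAK1 by -0.69 ± 0.039, JAK3 by -0.48 ± 0.0867 and IL21R by -0.31 ± 0.0501. IL2RG at 0.61 ± 0.0419 and STAT6 at 0.18 ± 0.0368 were higher with sh72, and STAT5B was at 0.00. KDM1A differed by -0.23 ± 0.0608 between the shRNAs, so the lower KDM1A level went with the smaller change of IL7R and STAT5A, and the part of the KDM1A level in these differences was not tested.

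When the changes with sh68 and sh72 were averaged, 5 members were called higher and 1 lower, where 24.9% of all tested genes were called higher and 27.5% lower. The averaged log2 fold change against shSCR was 2.11 ± 0.0562 for IL7R, 1.73 ± 0.114 for STAT5A, 0.86 ± 0.0844 for JAK3, 0.63 ± 0.0461 for IL21R and -0.49 ± 0.0312 for STAT6. IL4R was called at 0.11 ± 0.0382, the mean of a higher and a lower value, and the call was lost without shSCR replicate 1 or without shSCR replicate 3. For IL2RG, IL10RA and JAK1 the opposite movements averaged to 0.06, 0.01 and 0.01, and none of these was called.

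**Figure D3:**
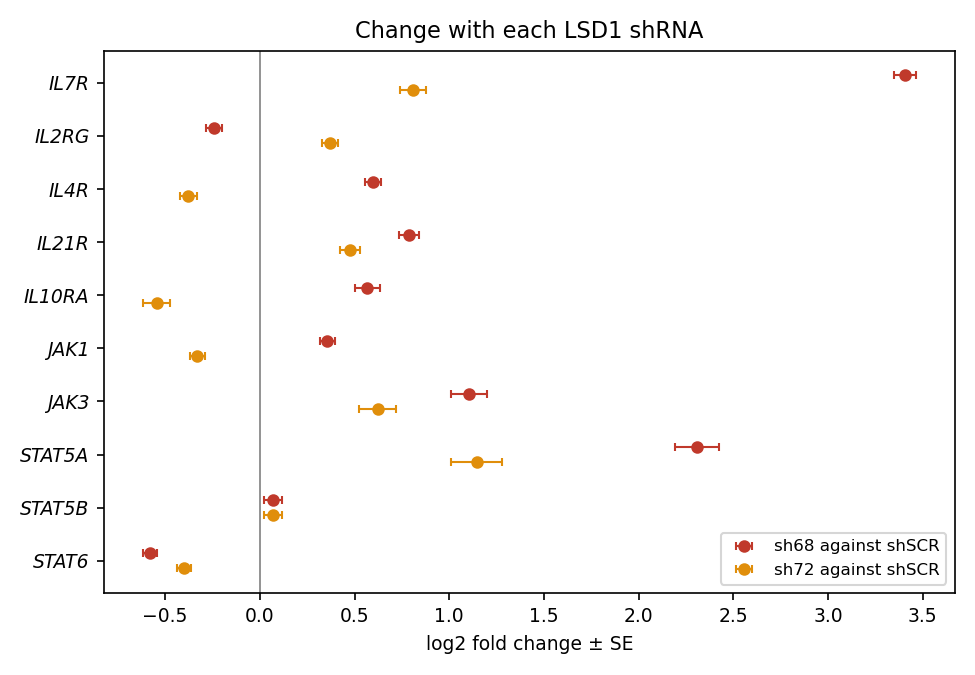
Log2 fold change against shSCR of each member with sh68 (red) and with sh72 (orange), as points with ± SE from edgeR. IL7R stands at 3.41 with sh68 and 0.81 with sh72, STAT5B lies at 0.07 with either, and IL2RG, IL4R, IL10RA and JAK1 lie on opposite sides of 0 with the 2 shRNAs.

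Among 33 other cytokine receptor chains, 27 had a row in the table and 21 were tested, of which 9 rose and 4 fell with sh68 (median log2 fold change 0.23) and 8 rose and 7 fell with sh72 (median 0.05), beside 27.4% of all tested genes higher and 28.1% lower with sh68 and 24.7% higher and 26.3% lower with sh72. IL6R, the interleukin-6 receptor alpha chain, had 8.54, 6.27 and 5.91 CPM in sh68 cells, 1.95, 2.43 and 2.98 CPM in sh72 cells and 1.64, 1.59 and 1.88 CPM in shSCR cells. Its log2 fold changes were 2.01 with sh68 and 0.52 with sh72 (adjusted p = 3.69e-10 and 0.0318). The call with sh72 was lost, by adjusted p, with limma-voom (0.0657), without shSCR replicate 1 (0.0805), without shSCR replicate 2 (0.084), without sh72 replicate 2 (0.0569) and without sh72 replicate 3 (0.149). IL12RB1, the beta 1 chain for interleukins 12 and 23, averaged 20.7 ± 1.74 CPM in sh68, 20.9 ± 2.11 CPM in sh72 and 11.01 ± 0.792 CPM in shSCR cells and rose by 0.91 with sh68 and 0.92 with sh72 (adjusted p = 2.28e-09 and 2.13e-09), with a log2 difference sh72 minus sh68 of 0.02 ± 0.076. IL5RA, the interleukin-5 receptor alpha chain, rose by 1.74 with sh68 and 1.79 with sh72 (adjusted p = 0.0059 and 0.00534) at no more than 0.384 CPM on average in any group. With 3, 4 and 3 reads in shSCR cells, IL5RA was tested only through its LSD1 shRNA libraries, so its rise is a description. IL15RA, which presents interleukin-15, fell by 1.2 with sh68 and 0.84 with sh72 on the log2 scale (adjusted p = 6.51e-05 and 0.00204). IFNAR2, a chain of the type I interferon receptor, moved by 0.42 with sh68 and -0.21 with sh72 (adjusted p = 4.66e-09 and 0.000169). IL2RB, the chain through which interleukin-2 and interleukin-15 signal, was below the read threshold with at most 6 reads in any library.

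Other STAT genes were measured beside the members. STAT2, which acts in the type I interferon response, changed by -0.61 with sh68 and -0.21 with sh72 (adjusted p = 2.64e-09 and 0.00282). STAT3, through which interleukin-21 and interleukin-10 signal, changed by -0.54 with sh68 and -0.50 with sh72 (adjusted p = 4.36e-09 and 1.84e-08). STAT2 and STAT3, like STAT6, were thus lower with either shRNA, while STAT5A was higher.

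Of 20 inhibitors of JAK and STAT signalling, 17 were tested, with 4 higher and 3 lower for sh68 and 2 higher and 6 lower for sh72. Beside them, sh68 gave 27.4% of all tested genes higher and 28.1% lower and sh72 gave 24.7% higher and 26.3% lower, so the share of these inhibitors that passed was not above that of all tested genes. PTPN6, the phosphatase SHP-1 that removes phosphates from JAK proteins and receptors, averaged 24.1 ± 1.47 CPM in sh68, 20.9 ± 0.458 CPM in sh72 and 74.6 ± 2.22 CPM in shSCR cells. It fell, with log2 fold changes of -1.63 with sh68 and -1.83 with sh72 (adjusted p = 8.7e-18 and 3.17e-18). SOCS6, of the suppressor of cytokine signalling family, averaged 2.18 ± 0.0866 CPM in sh68, 0.241 ± 0.0785 CPM in sh72 and 0.890 ± 0.134 CPM in shSCR cells and moved in opposite directions, by 1.29 with sh68 and -1.88 with sh72 (adjusted p = 7.42e-06 and 1.96e-05). SOCS4, of the same family, had log2 fold changes of 0.11 with sh68 and 0.40 with sh72 (adjusted p = 0.0308 and 3.58e-08). Its call with sh68 was lost, by adjusted p, with no filter (0.0575), without shSCR replicate 1 (0.095), without shSCR replicate 2 (0.0658) and without sh68 replicate 3 (0.113). PIAS3, an inhibitor of STAT3, changed by -0.28 with sh68 and -0.18 with sh72 (adjusted p = 0.00012 and 0.00701). CISH, SOCS2 and SOCS3, which STAT signalling normally switches on, had at most 2 reads in any library and were not tested, so they give no reading of STAT5 activity at this depth.

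Of 15 genes known as STAT5 targets, 11 were tested, and 6 rose and 3 fell with sh68 (median log2 fold change 0.30) while 1 rose and 7 fell with sh72 (median -0.21). The shares of all tested genes were 27.4% higher and 28.1% lower with sh68 and 24.7% higher and 26.3% lower with sh72. IL2RA, the interleukin-2 receptor alpha chain, had 50.1, 51.1 and 48.4 CPM in sh68 cells, 32.1, 31.0 and 30.2 CPM in sh72 cells and 27.7, 27.8 and 27.2 CPM in shSCR cells. Its log2 fold changes were 0.85 with sh68 and 0.17 with sh72 (adjusted p = 6.23e-13 and 0.0074), higher in every LSD1 shRNA library, as IL7R was. DUSP5, a phosphatase of ERK kinases, changed by -1.25 with sh68 and -0.74 with sh72 (adjusted p = 1.98e-08 and 2.59e-05). MCL1, a survival factor of the BCL2 family, changed by -0.27 with sh68 and -0.34 with sh72 (adjusted p = 8.78e-07 and 3.24e-08). PIM2, a survival kinase, moved by 0.36 with sh68 and -0.21 with sh72 (adjusted p = 6.77e-07 and 0.000952). CCND3, a G1 cyclin, moved by 0.30 with sh68 and -0.19 with sh72 (adjusted p = 5.14e-06 and 0.0013). DUSP6, another ERK phosphatase, moved by 0.76 with sh68 and -0.49 with sh72 (adjusted p = 1.67e-07 and 0.00033). In sh72 minus sh68, 1 of the 11 was higher and 8 were lower, where 27.2% of all tested genes were called higher and 29.0% lower. Of 8 STAT6 targets, 5 were tested, with 1 higher and 1 lower for sh68 and 0 higher and 2 lower for sh72. The shares of all tested genes are those given above for sh68 and sh72 against shSCR.

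All 19 genes listed here as regulators of IL7R in lymphocytes, in human or mouse, were tested. Of them, 14 rose and 2 fell with sh68 (median log2 fold change 0.31) while 4 rose and 11 fell with sh72 (median -0.13). The list is not a complete set, and how firmly each gene is tied to IL7R was not graded. It mixes activators with factors that oppose them, so its counts set no direction for IL7R. Over all tested genes, 27.4% rose and 28.1% fell with sh68, and 24.7% rose and 26.3% fell with sh72. FOXO1, which activates Il7r in mouse lymphocytes, had 201, 204 and 195 CPM in sh68 cells, 157, 148 and 152 CPM in sh72 cells and 109, 119 and 112 CPM in shSCR cells. Its groups did not overlap and stood in the order sh68, sh72, shSCR, with log2 fold changes of 0.82 with sh68 and 0.42 with sh72 (adjusted p = 2.55e-14 and 5.08e-09). LEF1, a transcription factor of the WNT pathway, changed by 0.90 with sh68 and 0.45 with sh72 (adjusted p = 2.07e-15 and 1.27e-09). The Ikaros family factor IKZF2 changed by 0.81 with sh68 and 0.50 with sh72 (adjusted p = 1.56e-14 and 1.49e-10). SPI1, which encodes PU.1, an activator of Il7r in mouse progenitors, changed by -0.51 with sh68 and -0.69 with sh72 (adjusted p = 2.02e-07 and 2.04e-09).

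The other 8 regulators named were called higher with sh68 and lower with sh72, and for ETS1, FOXP1 and TCF3 the call with sh72 was lost under some alternatives. The share of all tested genes called in those opposite directions was not counted, so whether 8 of the 19 is many cannot be said. PAX5, the factor that holds B-cell identity, had 608 ± 10.9 CPM in sh68, 269.9 ± 12.7 CPM in sh72 and 555 ± 21.3 CPM in shSCR cells, with log2 fold changes of 0.13 with sh68 and -1.04 with sh72 (adjusted p = 0.00625 and 6.1e-16). BACH2, a repressor of plasma cell genes, moved by 0.22 with sh68 and -0.97 with sh72 (adjusted p = 8.21e-06 and 2.53e-16). TCF7, a relative of LEF1, moved by 1.14 with sh68 and -0.85 with sh72 (adjusted p = 4.75e-10 and 1.88e-06). ETS1 had log2 fold changes of 0.50 with sh68 and -0.12 with sh72 (adjusted p = 3.92e-10 and 0.0208). Its call with sh72 was lost, by adjusted p, with library size alone (0.0717), DESeq2 (0.0519), only the groups compared (0.0565), without shSCR replicate 1 (0.119), without shSCR replicate 2 (0.113), without sh72 replicate 2 (0.224) and without sh72 replicate 3 (0.217), and its log2 fold change with sh72 ranged over -0.17 to -0.07 on leaving out 1 library. FOXP1, which in mouse T cells opposes FOXO1 at Il7r, had log2 fold changes of 0.36 with sh68 and -0.13 with sh72 (adjusted p = 2.93e-08 and 0.00752), and its call with sh72 was lost with library size alone (0.0553), without shSCR replicate 1 (0.0963) and without sh72 replicate 2 (0.0522). TCF3, an early B-cell factor, had log2 fold changes of 0.35 with sh68 and -0.19 with sh72 (adjusted p = 2.09e-05 and 0.0114). Its call with sh72 was lost with DESeq2 (0.149), without shSCR replicate 1 (0.126), without shSCR replicate 2 (0.0559), without sh72 replicate 2 (0.0893) and without sh72 replicate 3 (0.165), over a range of -0.27 to -0.10 on leaving out 1 library. EBF1, another early B-cell factor, moved by 0.27 with sh68 and -0.24 with sh72 (adjusted p = 4.16e-06 and 2.4e-05). NR3C1, the glucocorticoid receptor, moved by 0.14 with sh68 and -0.16 with sh72 (adjusted p = 0.00419 and 0.00155). In the direct contrast of the shRNAs each of these 8 had an adjusted p from edgeR of 6.32e-07 or less. That contrast is the difference of the values by which they were picked, so it adds no support. In sh72 minus sh68, 2 of the 19 listed regulators were higher and 16 lower. Of all tested genes, 27.2% were called higher and 29.0% lower in that contrast. The median log2 difference of the 19 was -0.49, against -0.01 over all tested genes.

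**Figure D4:**
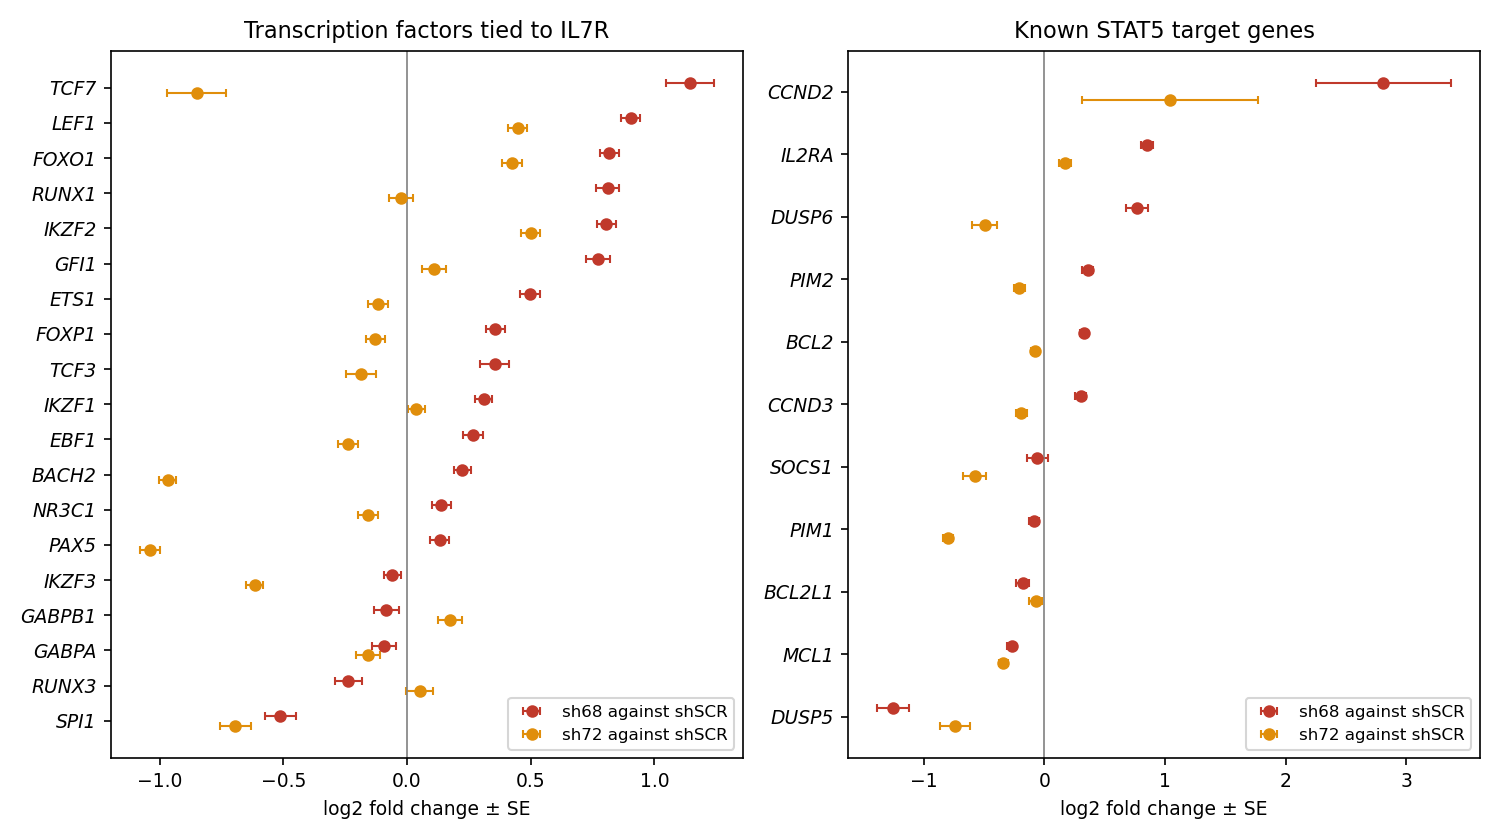
Log2 fold change against shSCR, with ± SE from edgeR, of the 19 genes listed as regulators of IL7R and the 11 tested STAT5 targets. Values with sh68 are in red and with sh72 in orange, ordered by the value with sh68. FOXO1 stands at 0.82 with sh68 and 0.42 with sh72, TCF7 at 1.14 and -0.85, and IL2RA at 0.85 and 0.17.

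Early B-cell markers moved beside IL7R with sh68. The 6 of them summed to 44.6 to 46.9 CPM with sh68, 3.44 to 4.11 CPM with sh72 and 4.78 to 5.97 CPM in shSCR cells. RAG1, the recombinase gene, had 35.0, 32.7 and 33.4 CPM in sh68 cells, 2.39, 2.97 and 3.15 CPM in sh72 cells and 4.48, 3.67 and 4.72 CPM in shSCR cells. Its log2 fold changes were 2.97 with sh68 and -0.61 with sh72 (adjusted p = 1.84e-18 and 0.000257). RAG2 and VPREB1, a surrogate light chain gene, rose by 3.06 and 4.08 with sh68 (adjusted p = 2.83e-13 and 6.74e-14) and did not pass with sh72. VPREB1 had 12, 7 and 7 reads in shSCR cells and was tested only through its sh68 libraries, so its rise is a description. DNTT, IGLL1 and CD34 had at most 2 reads in any library and were not tested. NK-cell markers summed to 11.2 to 12.3 CPM with sh68, 6.63 to 7.00 CPM with sh72 and 4.21 to 4.60 CPM in shSCR cells. PRF1 made up most of each sum, and of the 6 markers only PRF1 and KLRD1 were tested. NCAM1 and GNLY had at most 1 read in any library. NKG7 had 4, 4 and 9 reads with sh68, 10, 13 and 5 with sh72 and 3, 4 and 12 with shSCR. KLRD1, an NK-cell receptor chain, rose by 2.05 with sh68 and 2.42 with sh72 (adjusted p = 5.93e-06 and 3.6e-07). With 7, 7 and 7 reads in shSCR cells, KLRD1 was tested only through its LSD1 shRNA libraries, so its rise is a description. PRF1, perforin, rose by 1.41 with sh68 and 0.42 with sh72 (adjusted p = 1.01e-11 and 0.00184). Monocyte markers summed to at most 1.29, 0.408 and 0.383 CPM in those groups, with 29, 31 and 21 reads of LYZ in sh68 cells, 1, 2 and 1 in sh72 cells and 0, 0 and 0 in shSCR cells. Of 8 T-cell markers, 4 were tested, with 0 higher and 1 lower for sh68 and 1 higher and 1 lower for sh72. The shares of all tested genes were 27.4% higher and 28.1% lower with sh68 and 24.7% higher and 26.3% lower with sh72. CD3E, which defines T cells, had at most 3 reads in any library. CD3D, of the same complex, had 3, 4 and 13 reads in sh68 cells, 4, 11 and 14 in sh72 cells and 2, 2 and 1 in shSCR cells. Its log2 fold changes were 1.77 with sh68 and 2.40 with sh72 (adjusted p = 0.051 and 0.00596). CD3D had enough reads to test only through LSD1 shRNA libraries, so these values are a description. CD5, found on T cells and some B cells, changed by -1.55 with sh68 and -2.09 with sh72 (adjusted p = 5.89e-05 and 4.58e-06). All 8 B-cell markers were called lower with sh72, where 26.3% of all tested genes were, but the call of BCL6 among them was lost in most alternatives. With sh68, 3 rose and 2 fell, where 27.4% of all tested genes were called higher and 28.1% lower. CD79B, a chain of the B-cell receptor, had log2 fold changes of -0.14 with sh68 and -0.93 with sh72 (adjusted p = 0.00547 and 4.28e-15), and its call with sh68 was lost without shSCR replicate 2 (0.06) and without sh68 replicate 3 (0.0571). BCL6, the germinal-centre repressor, had log2 fold changes of -0.21 with sh68 and -0.10 with sh72 (adjusted p = 5.3e-05 and 0.034). Its call with sh72 was lost, by adjusted p, with RLE scaling (0.0791), library size alone (0.16), no filter (0.0508), at least 1 CPM in 3 libraries (0.0646), DESeq2 (0.0735) and only the groups compared (0.0792). It was also lost without shSCR replicate 1 (0.18), without shSCR replicate 2 (0.173), without sh68 replicate 1 (0.0545), without sh68 replicate 2 (0.0765), without sh68 replicate 3 (0.0669), without sh72 replicate 2 (0.344) and without sh72 replicate 3 (0.136), over a range of -0.12 to -0.05. MME and CD22 moved in opposite directions, MME by 0.40 with sh68 and -0.28 with sh72 (adjusted p = 1.16e-09 and 4.82e-07) and CD22 by 0.12 with sh68 and -0.17 with sh72 (adjusted p = 0.00583 and 0.000332). The part of these shifts in the levels of the receptor and STAT genes was not tested.

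Genes whose pattern was near to that of IL7R were found by the root mean square difference of log2 CPM, centred on shSCR, over 9 libraries and 10909 genes. Among the nearest were PRR5L at 0.215, CRB2 at 0.391, NAV3 at 0.497 and PLCH1 at 0.520. PRR5L had log2 fold changes of 3.36 with sh68 and 1.11 with sh72, where IL7R had 3.41 and 0.81. Nearest to STAT5A were APP, the amyloid precursor protein gene, at 0.111, AOX1 at 0.150, KLRC3 at 0.176, DNAJB13 at 0.191 and SLFN11 at 0.203. APP had log2 fold changes of 2.34 with sh68 and 1.13 with sh72, where STAT5A had 2.31 and 1.15. These genes were picked for their likeness, so their values are a description.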

How the data were processed

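The deposited table gives whole-number read counts per gene, made by the authors with CASAVA 1.8.2, STAR 2.5.2 and featureCounts 1.5.2 on hg38, per the submitters' processing notes, which do not state the annotation or the strand setting. All of its sample columns were used (0 columns left out). From these counts, genes were kept by edgeR's filterByExpr, libraries were scaled by TMM, and 1 quasi-likelihood model (edgeR 4.0.16, R 4.3.3) with terms for sh68, sh72 and shSCR was fitted to 15725 genes in 9 libraries. Contrasts were sh68 and sh72 each against shSCR, their mean against shSCR, and sh72 minus sh68, with Benjamini-Hochberg adjustment over all tested genes and a threshold of 0.05. CPM is TMM-scaled, SD is over 3 libraries, and SE is the log2 fold change over the root of F. P-values set the difference between groups against the spread between replicate libraries, estimated in 1 fit of all 9. Each group has 1 hairpin, so they do not cover the spread between hairpins.

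The members and gene lists were chosen with earlier results of these data known. Named from each list were up to 4 genes with the largest change among those called with both LSD1 shRNAs, and those called in opposite directions. Others named for context (IL7, IL10, IL2RB, CISH, SOCS2, SOCS3, IL21R-AS1, RAG2, VPREB1, DNTT, IGLL1, CD34, CD3D, CD3E, NCAM1, GNLY, NKG7 and LYZ) were chosen after their values were seen. The same results were recomputed with scaling by RLE or by library size, without the filter, with at least 1 CPM in 3 libraries, DESeq2 1.42.0, limma-voom 3.58.1, other models and leaving out each library. Depth of 29506767 to 35270849 reads limits genes of a few reads, which were not tested. Positions and promoter sequences are from RefSeq GRCh38.p14, and exon lengths from GENCODE 29. Reads were not analysed here. Some genes that the naming rule picks are not reported here.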

Additional observations from a re-analysis of the deposited data

Results flagged for a closer look

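In 4 of the 10 genes the LSD1 shRNAs moved the level in opposite directions against the same shSCR libraries. The share of all tested genes that did so was not counted. The direct contrast of the shRNAs was called for each of the 4, but it is the difference of those same values and adds no support. The log2 difference sh72 minus sh68 was 0.61 for IL2RG, -0.98 for IL4R, -1.11 for IL10RA and -0.69 for JAK1. The genes were chosen with these counts known, and 27.2% of all tested genes were called higher and 29.0% lower in that contrast. Each LSD1 level comes with its own hairpin here, so the hairpin and the loss of LSD1 cannot be told apart.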

How the results depend on the processing

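Of 680 alternative values for the 10 genes, 670 kept their direction and their side of the threshold, 5 changed sign, 2 gained the call and 3 lost it. STAT5B in sh72 minus sh68, near 0 throughout, was -0.0046 with at least 1 CPM in 3 libraries and ranged from -0.015 to 0.028 on leaving out a library, and IL10RA in the mean of both shRNAs ranged from -0.037 to 0.058. The mean log2 fold change of IL4R lost its call without shSCR replicate 1 (adjusted p from edgeR 0.0585), without shSCR replicate 3 (0.0709) and with the 6 LSD1 shRNA libraries as 1 group (0.655), while IL2RG (0.0364) and STAT5B (0.0485) gained one for that mean with library size alone. With the 6 as 1 group, 3581 genes were called against 8226, with 0 ligands, 9 other receptor chains, 2 inhibitors, 2 STAT5 targets, 0 STAT6 targets and 4 regulators of IL7R. Of 2579 values for list genes, 2502 were as in the report, 54 lost the call, 10 gained it and 13 changed sign. For the mean of both shRNAs NR3C1 was 0.024 with library size alone, 0.0093 with at least 1 CPM and -0.023 to 0.023 on leaving out a library, CD22 was 0.0096 with library size alone, SOCS6 was 0.45 with the 6 as 1 group and EBF1 was -0.015 to 0.056 on leaving out a library. In sh72 minus sh68 IL12RB1 was -0.067 to 0.086, IL5RA -0.34 to 0.37 and STAT3 -0.0024 to 0.076 on leaving out a library. Of the small lists, STAT6 targets called with sh72 were 1 in place of 2 under RLE scaling, library size alone, no filter, at least 1 CPM, DESeq2, limma-voom and only the groups compared, and 1 for the mean under library size alone, at least 1 CPM and DESeq2. With at least 1 CPM, 1 STAT6 target was called with sh68 and 1 in sh72 minus sh68, and 0 ligands with sh72, for the mean and in sh72 minus sh68, because fewer genes were tested. Leaving out each library gave 1 to 2 STAT6 targets in each comparison against shSCR, 4 to 7 inhibitors with sh68 (4 without shSCR replicate 1) and 0 to 1 ligands with sh68. Apart from the lower number of genes tested, the cause of these shifts was not tested. With a replicate block, 9, 9, 6 and 9 members were called with sh68, with sh72, for the mean and in sh72 minus sh68, as without it, and 9173, 8436, 8631 and 9190 genes; residuals of same-numbered libraries correlated between -0.0594 and 0.197 over 9 pairs, and 4 of 9 libraries were closest to their own number in both other groups. No label says that a number marks a shared batch or day, and not every pair was over 0.1, so the libraries were treated as unpaired.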
